A study of Mus musculus with 6 samples.

Results

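The transcripts of the constitutive proteasome were examined in resting natural killer cells (NKC) from the spleens of mice lacking the transcription factor Runx3. The genes were taken by symbol, as those starting with Psma, Psmb, Psmc or Psmd followed by a digit, leaving out the interferon-inducible Psmb8, Psmb9 and Psmb10. This gave 37 genes read by 76 probe sets, of 18193 genes on the array, and 35 of them reached a log2 signal of 5 on at least 1 array and were tested, among 9545 genes tested in all. None of them passed a 5% false discovery rate (limma). The alpha-ring gene Psma1 was 1.54-fold higher and the assembly chaperone gene Psmd5 1.59-fold lower in Runx3-/- NKC at the looser thresholds that the study used. The mean over the 35 genes lay 0.14 log2 units lower in Runx3-/- NKC, where the mean change of all tested genes was -0.08. The median change was -0.14 over the 35 genes and -0.13 over all tested genes.

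The proteasome degrades proteins marked with ubiquitin. Its barrel-shaped core (20S) stacks outer rings of alpha subunits, which gate the entrance, on inner rings of beta subunits, of which Psmb5, Psmb6 and Psmb7 carry the chymotrypsin-like, caspase-like and trypsin-like proteolytic sites. The regulatory cap (19S) binds ubiquitin chains, removes them and unfolds the substrate with a ring of ATPases. In lymphocytes, Psmb8, Psmb9 and Psmb10 take the place of the constitutive catalytic subunits in the immunoproteasome, which is known for producing peptides presented on MHC class I.

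The compared groups were 3 Runx3-/- samples and 3 wild-type (WT) samples from mice of the ICR strain, 6 weeks old. The series describes each sample as coming from an individual mouse, yet the sex label of every sample reads male and female, so whether a sample was 1 mouse or a pool is not settled here. The RNA came from spleen cells depleted of other cell types and then sorted for the surface antigen DX5, with no stimulation of the cells. The knockout was carried by all cells of the mouse, not by NKC alone. Expression was measured on Affymetrix mouse arrays as GC-RMA log2 signals, so that 1 log2 unit is a 2-fold difference. Levels can be compared between arrays for a gene but not between genes.

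The Runx3 signal was 7.76, 8.51 and 8.68 on the Runx3-/- arrays, against 10.11, 11.56 and 10.73 on the WT arrays, a 5.59-fold lower level (limma adjusted p = 0.0565). Where its probes lie relative to the deleted part is not known here, so residual signal says nothing about protein. Between 17074 and 17771 probe sets reached log2 5 on each array. The summed linear signal of 11 NKC marker genes was 177000 to 200000 in Runx3-/- NKC and 173000 to 211000 in WT NKC, so the labelled cell type was present in both groups. Of these 11 genes, 1 was lower in Runx3-/- NKC by the thresholds of the study and 0 were higher. Markers of other cells that the DX5 sort could retain differed: 8 of 9 tested basophil genes were higher in Runx3-/- NKC by the thresholds of the study and 0 were lower (summed signal 23000 to 40400 in Runx3-/- NKC and 7470 to 8740 in WT NKC), and 3 of 5 B cell genes were higher and 0 lower (1690 to 3400 in Runx3-/- NKC and 665 to 1320 in WT NKC, with Pax5 below log2 5 on every array). Of 9 cell cycle genes, 7 were higher and 0 lower (17000 to 24100 in Runx3-/- NKC and 9350 to 16800 in WT NKC). Every cell makes proteasomes, so these RNAs came from all cells of the sort, and fewer cells of a type cannot be told apart from less RNA per cell. The part of these marker differences in the values that follow was not tested.

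Promoters were set beside the genes because Runx3, the factor removed, binds DNA, and because proteasome genes are known to share control by Nrf1 through antioxidant response elements (ARE). RefSeq (GRCm38.p6) promoters were matched for 30 of the 37 genes, with none listed for Psma8, Psmb1, Psmb2, Psmb7, Psmc3, Psmd3 and Psmd7. The 250 bases before the annotated start are shown 5′ to 3′ on the gene's own strand for the genes at the study's thresholds, Psma1 and Psmd5, and for the catalytic genes with an entry, Psmb5 and Psmb6. Capitals mark matches, on either strand, to the ARE core TGACNNNGC, to CCAAT, or to the RUNX hexamer TGTGGT or one of its variants, which were searched as TGTGGC, then as TGCGGT, and lastly as TGCGGC.
Psma1 (chr7:114276117-114276366, minus strand): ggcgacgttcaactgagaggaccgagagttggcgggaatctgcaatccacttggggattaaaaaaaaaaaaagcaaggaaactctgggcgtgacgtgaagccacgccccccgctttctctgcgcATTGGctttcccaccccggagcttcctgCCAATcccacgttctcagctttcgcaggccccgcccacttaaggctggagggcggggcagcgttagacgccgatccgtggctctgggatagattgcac
Psmd5 (chr2:34870963-34871212, minus strand): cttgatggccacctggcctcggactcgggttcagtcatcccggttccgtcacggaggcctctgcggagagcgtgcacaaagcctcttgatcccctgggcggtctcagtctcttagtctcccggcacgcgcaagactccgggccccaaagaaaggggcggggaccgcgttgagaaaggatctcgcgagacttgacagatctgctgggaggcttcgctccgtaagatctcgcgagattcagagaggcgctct
Psmb5 (chr14:54617996-54618245, minus strand): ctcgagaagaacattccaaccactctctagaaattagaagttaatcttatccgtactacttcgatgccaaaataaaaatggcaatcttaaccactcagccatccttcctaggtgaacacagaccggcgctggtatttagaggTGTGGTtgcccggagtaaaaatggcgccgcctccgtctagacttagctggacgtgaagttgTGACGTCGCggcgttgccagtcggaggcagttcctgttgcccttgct
Psmb6 (chr11:70525107-70525356, plus strand): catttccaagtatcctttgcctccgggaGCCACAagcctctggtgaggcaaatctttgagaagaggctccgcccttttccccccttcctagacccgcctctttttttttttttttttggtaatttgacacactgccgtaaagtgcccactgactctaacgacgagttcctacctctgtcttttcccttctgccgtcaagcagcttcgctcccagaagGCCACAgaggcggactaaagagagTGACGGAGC

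Psma1 held CCAAT once on each strand, Psmb5 held an ARE core (TGACGTCGC) and a RUNX hexamer (TGTGGT), and Psmb6 held an ARE core (TGACGGAGC) and 2 RUNX hexamers on the reverse strand (GCCACA). The Psmd5 window held none of these letters. Over the 30 promoters of genes found by the symbol rule, the ARE core was found in 5 (16.7%), against 10.1% of all 27025 promoters of the same length. CCAAT was found in 13 (43.3%, against 34.5% of all), and a RUNX hexamer in 13 (43.3%, against 37.9% of all). The 30 include Psmc3ip, which is not a proteasome gene, and Psmb11, which was not tested. Both held CCAAT and a RUNX hexamer and lacked an ARE core. Where more than 1 promoter was listed for a gene, the first was used. A match describes the letters only and is not a binding site.

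Across the 35 tested genes, log2 changes (Runx3-/- minus WT throughout) ran from -0.67 for Psmd5 to 0.67 for Psmb2, with a median of -0.14 and quartiles of -0.33 and -0.01. Over all 9545 genes the median was -0.13 and the quartiles -0.39 and 0.16, within a range of -4.51 to 4.01. The change was under 0 in 27 proteasome genes (77.1%) and in 62.2% of all tested genes. When every array was centred on the median of the tested genes, which removed a shift of -0.12 between the groups, 20 proteasome genes (57.1%) were under 0, beside 50.7% of all. The sign of a small change here therefore depended on the scaling.

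At the study's thresholds, an unadjusted limma p under 0.05 with at least a 1.5-fold change, 1 proteasome gene was higher in Runx3-/- NKC, where 4.89% of all tested genes were, and 1 was lower, where 8.86% were. Among all tested genes these calls split into 467 higher and 846 lower. With arrays centred on the tested genes' median the split was 627 higher and 498 lower. After Benjamini-Hochberg adjustment over all tested genes, 0 of the 35 passed 5%, against 0.608% of all genes, the lowest adjusted p being 0.226. Of the 35, only Psma1 and Psmd5, the 2 genes at the study's thresholds, had an unadjusted limma p under 0.05. The share of all tested genes with such a p was not computed. The limma 95% interval of the change lay within 2-fold either way for 26 proteasome genes (74.3%), against 56.3% of all, and reached beyond 2-fold for the others, with 3 arrays in a group.

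**Figure D1:**
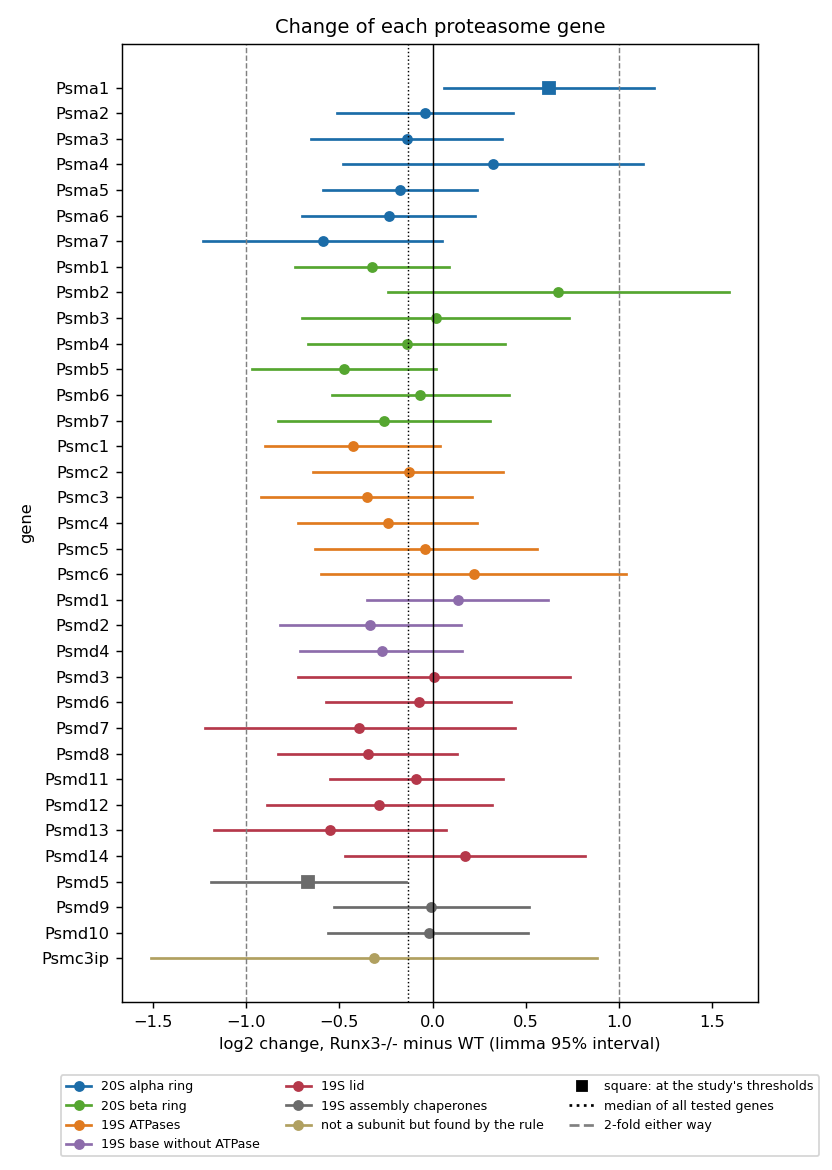
Log2 change of each of the 35 tested proteasome genes (Runx3-/- minus WT, horizontal axis) with its limma 95% interval, coloured by role. Squares mark Psma1 (0.62) and Psmd5 (-0.67), the solid line is no change, the dotted line the median of all tested genes (-0.13), and 27 of the points lie left of 0.

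In the alpha ring, Psma1 had a log2 signal of 11.97, 12.46 and 12.63 in Runx3-/- NKC, against 11.88, 11.79 and 11.51 in WT NKC. All Runx3-/- arrays lay above all WT arrays, the only proteasome gene of which this was so (5.98% of all tested genes). The log2 change was 0.62 (95% interval 0.06 to 1.19, limma adjusted p = 0.274). The call was lost without the second or the third array of either group, and when dimmer probe sets of the gene were averaged in (0.19). The ring's other extreme was Psma7, with 10.29, 11.06 and 11.14 in Runx3-/- NKC, against 11.25, 11.62 and 11.39 in WT NKC. Its groups did not overlap either, in the opposite direction, and its change of -0.59 (-1.23 to 0.05, limma adjusted p = 0.343) missed the unadjusted p of the thresholds. Without the first Runx3-/- array the change of Psma7 was -0.32. A further probe set of the gene gave -0.71. The ring as a whole had a median change of -0.14, with 5 genes under 0 and 2 above it.

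The beta ring, with 5 of 7 genes under 0 and a median change of -0.14, holds the catalytic genes. Psmb5, the chymotrypsin-like subunit and the main target of proteasome inhibitor drugs, had 11.90, 11.95 and 12.12 in Runx3-/- NKC, against 12.18, 12.65 and 12.57 in WT NKC. These groups did not overlap, and the change was -0.48 (95% interval -0.97 to 0.02, limma adjusted p = 0.322). Psmb6, the caspase-like subunit, had 11.79, 11.51 and 11.45 in Runx3-/- NKC, against 11.48, 11.65 and 11.81 in WT NKC. Its groups overlapped over most of their range, with a change of -0.06 (-0.54 to 0.41, limma adjusted p = 0.902). Psmb7, the trypsin-like subunit, had 10.40, 11.16 and 10.86 in Runx3-/- NKC, against 11.08, 10.95 and 11.19 in WT NKC. Only the first Runx3-/- array lay below the WT arrays by more than their own range, and the change was -0.26 (-0.83 to 0.31, limma adjusted p = 0.620), and -0.06 without that array.

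Psmb2, a beta subunit with no proteolytic site, gave the highest change of the 35 genes with all arrays in the fit. Its signal was 8.57, 9.48 and 9.17 in Runx3-/- NKC, against 7.60, 8.84 and 8.77 in WT NKC. A low first array in both groups left them overlapping, and the change of 0.67 (95% interval -0.24 to 1.59, limma adjusted p = 0.431) had an interval that included 0. Without the first WT array it was 0.27, below that of Psma1 in the same fit (0.70). Psmb1, another structural subunit, was separated by group with little spread, with 12.45, 12.38 and 12.49 in Runx3-/- NKC, against 12.72, 12.76 and 12.82 in WT NKC. The SD was 0.06 in Runx3-/- NKC and 0.05 in WT NKC, and the change -0.33 (-0.74 to 0.09, limma adjusted p = 0.407). Psmb1 fell outside the rule for naming genes and was chosen after its values were seen.

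Among the 6 ATPases, which form the ring that unfolds substrates and opens the core, the median change was -0.18, with 5 genes under 0. Psmc1 (Rpt2) had 10.32, 10.21 and 10.59 in Runx3-/- NKC, against 10.85, 10.91 and 10.64 in WT NKC. The groups stood just apart, with a change of -0.43 (95% interval -0.90 to 0.04, limma adjusted p = 0.347). Psmc6 (Rpt4) had 10.49, 10.79 and 10.46 in Runx3-/- NKC, against 11.08, 10.32 and 9.67 in WT NKC. The WT arrays spanned the Runx3-/- arrays, and the change was 0.22 (-0.60 to 1.04, limma adjusted p = 0.781).

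The base also holds Psmd1 (Rpn2) and Psmd2 (Rpn1), large scaffolds, and Psmd4 (Rpn10), a ubiquitin receptor. Psmd2 had 11.45, 11.33 and 11.26 in Runx3-/- NKC, against 11.46, 11.94 and 11.66 in WT NKC. The highest Runx3-/- array and the lowest WT array all but touched, and the change was -0.34 (95% interval -0.82 to 0.15, limma adjusted p = 0.453). Psmd1 had 10.33, 10.55 and 10.18 in Runx3-/- NKC, against 10.43, 10.12 and 10.09 in WT NKC, overlapping, with a change of 0.14 (-0.35 to 0.62, limma adjusted p = 0.766). Psmd4 had a change of -0.27 (-0.71 to 0.16), with no overlap between the groups.

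In the lid, whose 8 genes had a median change of -0.19, the extremes were Psmd13 and Psmd14. Psmd13 (Rpn9), a structural subunit, had 10.39, 10.71 and 11.26 in Runx3-/- NKC, against 11.18, 11.54 and 11.30 in WT NKC. A single Runx3-/- array reached into the WT range, and the change was -0.55 (95% interval -1.17 to 0.07, limma adjusted p = 0.352). Psmd14 (Rpn11), the metalloprotease that cuts ubiquitin chains from substrates, had 12.03, 12.11 and 12.40 in Runx3-/- NKC, against 12.36, 12.19 and 11.46 in WT NKC. The third WT array was low, and the change was 0.18 (-0.47 to 0.82, limma adjusted p = 0.780), and -0.09 without that array.

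The chaperones Psmd5, Psmd9 and Psmd10 assist assembly of the 19S base and are not part of the finished particle. Psmd5 had 9.35, 9.88 and 9.95 in Runx3-/- NKC, against 10.43, 10.43 and 10.32 in WT NKC. All Runx3-/- arrays lay below all WT arrays, and the change of -0.67 (95% interval -1.19 to -0.14) had an unadjusted limma p of 0.0195 and an adjusted p of 0.226. The call was lost without the first Runx3-/- array (-0.48), without the second WT array (-0.65) and with arrays centred on the tested genes' median (-0.54). It was also lost with quantile normalization (-0.58) and with array weights (-0.58). Psmd9 and Psmd10 had changes of -0.01 and -0.02, with intervals within 2-fold either way.

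The symbol rule also took Psmc3ip, which encodes a cofactor of meiotic recombination and not a proteasome subunit. It had 7.13, 7.02 and 7.95 in Runx3-/- NKC, against 6.49, 8.29 and 8.27 in WT NKC, a change of -0.32 with the widest interval of the 35 (-1.51 to 0.88). Leaving out Psmc3ip and the chaperones, the 31 genes of the particle itself had a median change of -0.14. The 2 genes that were not tested encode tissue-restricted forms. Psma8, the testis alpha subunit, had 3.25, 2.91 and 3.08 in Runx3-/- NKC and 3.26, 3.08 and 3.14 in WT NKC. Psmb11, the thymus beta subunit, had 1.90, 1.87 and 2.05 in Runx3-/- NKC and 1.97, 2.01 and 1.96 in WT NKC.

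**Figure D2:**
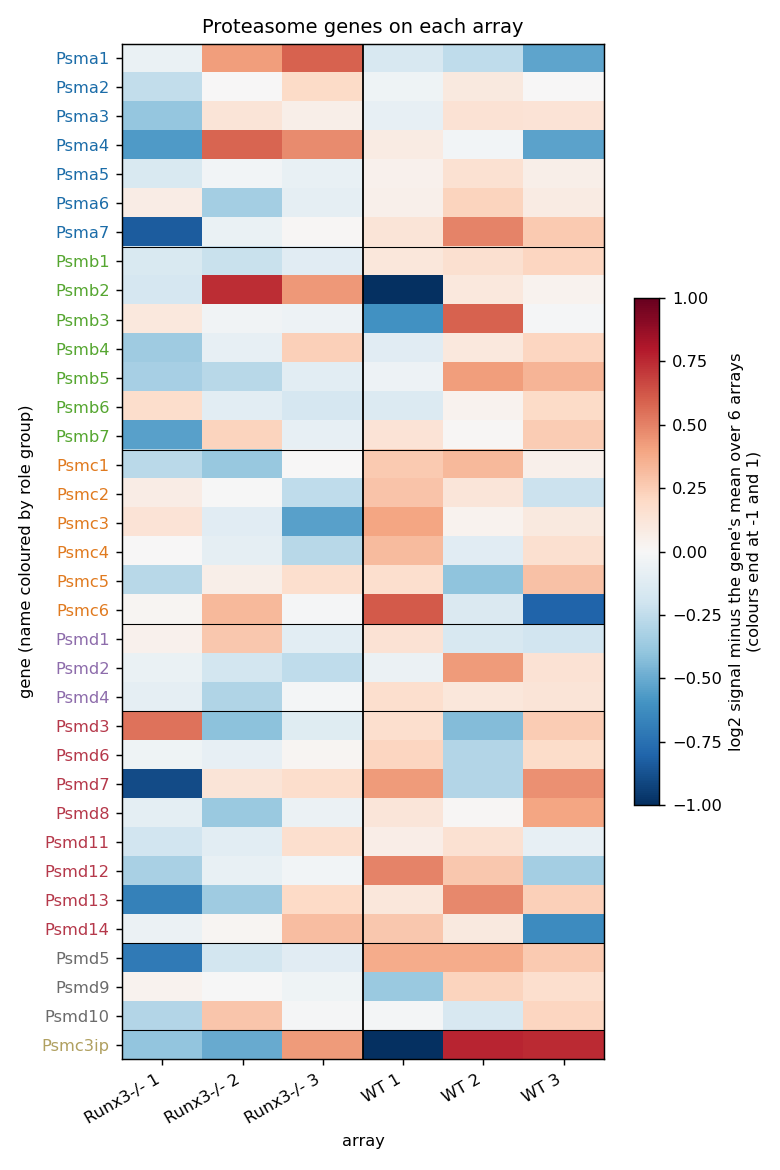
Log2 signal of each tested proteasome gene on each array, minus the gene's mean over the 6 arrays, with Runx3-/- arrays left of the vertical line and WT arrays right of it (red higher, blue lower, colours ending at -1 and 1). The first Runx3-/- array holds the lowest value of 13 of the 35 genes, and the second WT array the highest of 12.

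In 9 genes (25.7%, against 16.8% of all tested genes) every Runx3-/- array lay below every WT array, namely Psma5, Psma7, Psmb1, Psmb5, Psmc1, Psmd2, Psmd4, Psmd8 and Psmd5, and in 25 the groups overlapped. Overlap of single genes was read on uncentred arrays throughout. The median of all tested genes was itself lower on every Runx3-/- array (8.97, 8.87 and 8.85) than on every WT array (8.98, 9.04 and 9.04). With these medians subtracted, the groups overlapped for Psma5, Psmb5, Psmc1, Psmd4 and Psmd8. They stayed apart for Psmb1 and Psmd5, and were too close to tell at the printed digits for Psma7 and Psmd2. The first Runx3-/- array held the lowest value for 13 genes (37.1%, against 17.8% of all tested genes) and the highest for 1. The second WT array held the highest value for 12 (34.3%, against 17.9% of all). The macrophage gene Csf1r read 12.19, 10.03 and 5.85 on the Runx3-/- arrays, against 9.56, 9.32 and 8.79 on the WT arrays, so the same first Runx3-/- array was highest for it. All 9 basophil genes with a probe set were highest on that array too. Cpa3, for 1, read 11.69, 9.98 and 9.96 on the Runx3-/- arrays, against 9.41, 8.33 and 7.32 on the WT arrays. By the thresholds of the study, 1 of 7 macrophage genes was higher in Runx3-/- NKC and 0 were lower. Their summed signal was 511 to 12400 in Runx3-/- NKC and 2070 to 2720 in WT NKC. The part of these macrophage and basophil signals in the proteasome values was not tested.

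The mean over the 35 genes was 11.00, 11.16 and 11.22 on the Runx3-/- arrays, against 11.23, 11.30 and 11.26 on the WT arrays. The Runx3-/- arrays lay below the WT arrays by a small margin, 11.13 ± 0.12 in Runx3-/- NKC and 11.26 ± 0.03 in WT NKC (SD, n = 3 each). The difference of -0.14 became -0.07 without the first Runx3-/- array. The median of all tested genes was 8.97, 8.87 and 8.85 on the Runx3-/- arrays, against 8.98, 9.04 and 9.04 on the WT arrays. Centred on that median, the proteasome mean was 10.98, 11.25 and 11.33 in Runx3-/- NKC, against 11.21, 11.22 and 11.18 in WT NKC. The groups then overlapped, with a difference of -0.02. By role, the means of the alpha ring were 11.94, 12.35 and 12.42 in Runx3-/- NKC, against 12.26, 12.38 and 12.18 in WT NKC, and those of the 3 base genes without ATPase 11.22, 11.18 and 11.13 in Runx3-/- NKC, against 11.34, 11.38 and 11.28 in WT NKC. Of the role groups plotted, only the base genes without ATPase had means that did not overlap between Runx3-/- and WT arrays. Centred on the tested genes' median they overlapped too, with 11.21, 11.27 and 11.24 in Runx3-/- NKC, against 11.32, 11.30 and 11.20 in WT NKC.

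**Figure D3:**
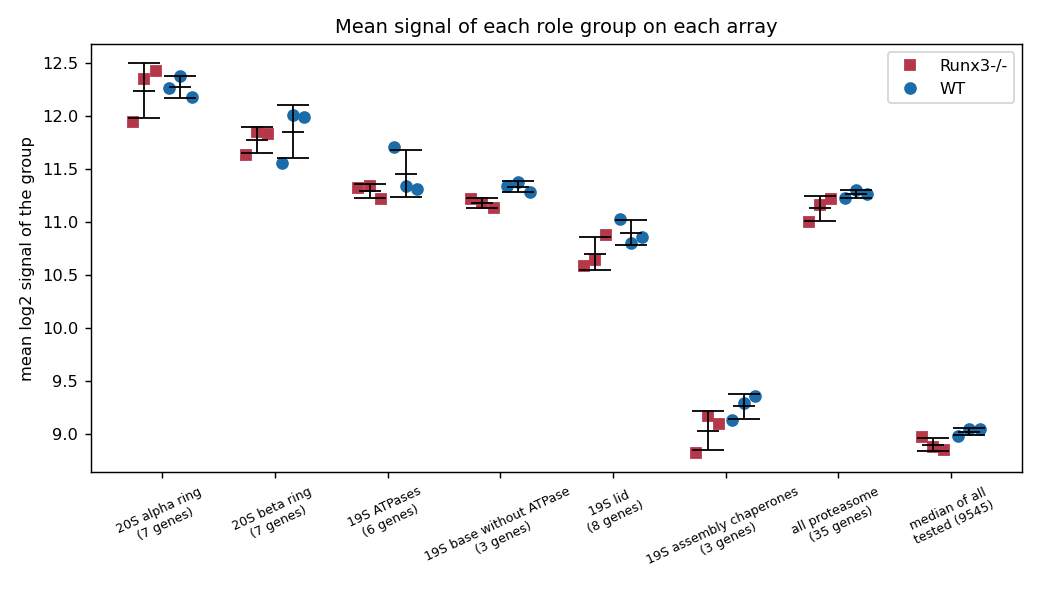
Mean log2 signal of each role group on each array (squares Runx3-/-, circles WT), with the mean and SD of the 3 arrays of a group as black bars; heights can be compared within a role group only. The mean over all 35 genes is 11.13 in Runx3-/- NKC and 11.26 in WT NKC, and the median of all 9545 tested genes at the right is lower in Runx3-/- NKC as well.

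Several genes were read by more than 1 probe set, and their changes were compared within the gene. Of the 76 probe sets, 53 reached log2 5 on all 6 arrays and 19 on none. In 14 genes more than 1 probe set reached it on all 6. All probe sets of the gene were under 0 in 9 of these genes, all were above 0 in 2 (Psmb3, 0.02 and 0.47, and Psmc6, 0.01 to 0.44), and the signs were mixed in Psmd6, Psmd7 and Psmd11. Psmd11 (Rpn6), a lid scaffold, was the only one whose probe sets differed by over 1.5-fold, from -0.47 to 0.14 over 4 probe sets. Psma1 and Psmd5 had no further probe set at this level.

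**Figure D4:**
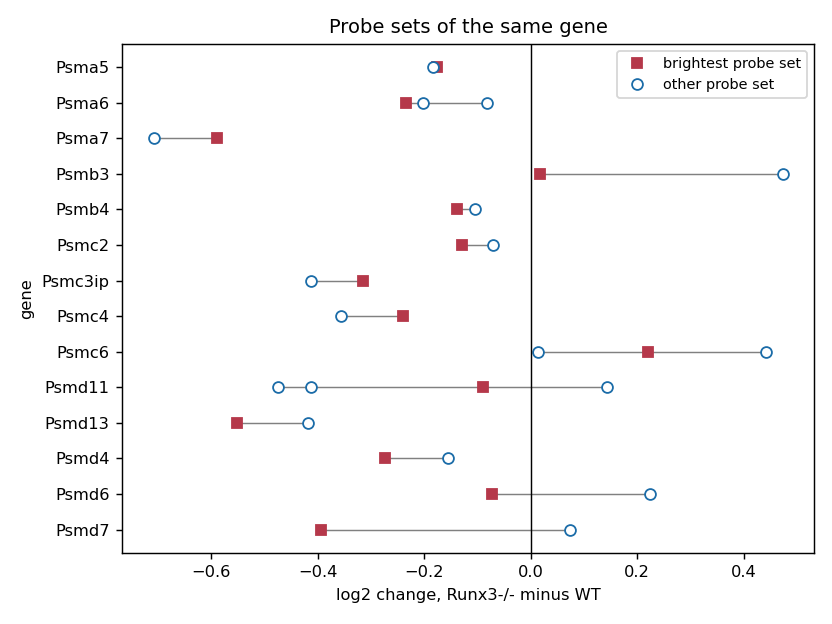
Log2 change (Runx3-/- minus WT) of every probe set at log2 5 or more on all 6 arrays, for the 14 proteasome genes with more than 1; filled squares are the brightest probe set, used for the gene, and open circles the others. The 4 probe sets of Psmd11 span 0, from -0.47 to 0.14.

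The interferon-inducible catalytic subunits were set beside the constitutive ones. Psmb8 had 11.84, 11.79 and 11.81 in Runx3-/- NKC, against 11.92, 11.09 and 12.14 in WT NKC, a change of 0.09 (limma adjusted p = 0.902). Psmb9 had 12.18, 11.96 and 12.29 in Runx3-/- NKC, against 11.82, 11.71 and 12.13 in WT NKC, a change of 0.26 (limma adjusted p = 0.571). Psmb10 had 11.97, 11.57 and 11.80 in Runx3-/- NKC, against 11.63, 12.01 and 12.40 in WT NKC, a change of -0.23 (limma adjusted p = 0.676). In all 3 genes the groups overlapped. The mean of Psmb5, Psmb6 and Psmb7 was 11.36, 11.54 and 11.48 in Runx3-/- NKC, against 11.58, 11.75 and 11.86 in WT NKC. These means did not overlap and differed by -0.27, while those of the inducible subunits differed by 0.04. With arrays centred on the tested genes' median the catalytic means overlapped, and the differences were -0.14 for the catalytic and 0.16 for the inducible subunits. Whether these differences were unequal was not tested.

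Of 38 further gene symbols listed for the pathway, some of them synonyms of others, 26 were tested. Of these, 1 was lower and 0 were higher in Runx3-/- NKC by the same thresholds (8.86% of all tested genes were lower and 4.89% higher). Their median change was -0.12, and 16 (61.5%) were under 0, against 62.2% of all tested genes and 13 of the 26 with arrays centred on the tested genes' median. The lower gene was Psme3, which encodes the nuclear activator PA28 gamma. It had 8.60, 8.51 and 8.93 in Runx3-/- NKC, against 8.84, 9.67 and 9.49 in WT NKC. The groups overlapped by 1 array each, and the change was -0.65 (95% interval -1.29 to -0.02, limma adjusted p = 0.302). The call was lost without the first or the second Runx3-/- array, and without the second or the third WT array (-0.61 to -0.49). It was also lost when the gene's probe sets were averaged (-0.33) and with arrays centred on the median of all probe sets (-0.62), quantile-normalized (-0.58) or centred on the tested genes' median (-0.53). The 5 tested genes of substrate delivery, Rad23b, Ubqln1, Ubqln2, Ubqln4 and Vcp, were under 0, from -0.43 to -0.15, as were 62.2% of all tested genes, and none met the thresholds. With arrays centred on the tested genes' median they ran from -0.31 to -0.03. The 5 assembly factors of the core had a median change of -0.12, and the regulators Nfe2l1 (Nrf1), Nfe2l2 (Nrf2) and Ngly1, the enzyme that processes Nrf1, had one of 0.04. The 6 tested genes of 19S subunits with other symbols and of associated factors ran from -0.50 (Ube3c) to 0.45 (Uchl5). Of these 6, 4 were under 0, or 3 with arrays centred on the tested genes' median, and none met the thresholds.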

How the data were processed

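Resting splenic NKC in 3 Runx3-/- and 3 WT samples were measured on 1 array each. The authors ran GC-RMA in Partek (no versions given) and deposited log2 signals, 1 column per array. GC-RMA corrects background by base content and scales arrays to each other, so a change in total RNA per cell cannot be seen. The deposited arrays still differed somewhat in level, with medians of the tested genes from 8.85 to 9.04. Labels and methods name different labelling kits. Arrays carry no read depth, and their number limits the precision.

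Probe sets with 1 gene symbol in the platform annotation were used, 34945 of 45101, and a gene took its brightest probe set by the mean over the 6 arrays. Genes at log2 5 or more on at least 1 array were tested, because the study asked for signal above a background whose level its methods leave out. The contrast Runx3-/- minus WT was fitted on all 6 arrays with limma 3.58.1 in R 4.3.3 (lmFit, eBayes, no covariate), after the code had been tested on simulated data. P-values were adjusted by Benjamini-Hochberg over the 9545 tested genes. The study's thresholds were 1.5-fold and p under 0.05, with a test it does not name. P-values measure the spread between the samples of a group, whether these were single mice or pools. No column of the value table was left unmapped.

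Arrays of a group correlated at 0.950 to 0.974 and arrays of different groups at 0.925 to 0.960. Of the marker lists not given in the report, 0 of 4 T cell genes met the thresholds, and 1 of 5 neutrophil and 1 of 4 platelet genes were lower.

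Values on each array are given for genes at the thresholds, the catalytic and inducible subunits, and the highest and lowest change of each role group. The members and lists were chosen with earlier results of these data known.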

Additional observations from a re-analysis of the deposited data

How the results depend on the processing

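No proteasome gene passed the 5% false discovery rate under any of the 18 alternatives run. The 1 higher gene, Psma1, became 0 when a gene's probe sets were averaged (0.19, limma adjusted p = 0.615), and over the fits without 1 array the count was 0 to 2. The averaging took in Psma1 probe sets near or below log2 5 (means of 5.23, 4.07 and 4.04, against 12.04 for the one used). Psma1 lost its call without the second or the third array of either group, and Psma4 was added without the first Runx3-/- array. The count of lower genes became 0 with quantile normalization, 0 with array weights, 0 with centring on the tested genes' median (an alternative chosen after seeing the data) and 2 with a trended, robust eBayes, which added Psma7. Without 1 array it was 0 to 3. Psmd5 lost its call without the first Runx3-/- array (-0.48) or the second WT array (-0.65), Psma7 and Psmd13 were added without the third Runx3-/- array, and Psmb5 and Psmc3ip without the first WT array. The difference in the proteasome mean moved to -0.02 with centring on the tested genes' median and otherwise lay between -0.18 and -0.07. With a median over the tested proteasome genes in place of the mean, the difference was -0.20.

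Among the named genes, sign changes concerned Psmb6 (-0.06 in the main fit), Psmb8 (0.09), Psmd14 (0.18) and Psmc6 (0.22). Psmb6 was 0.02 with quantile normalization, 0.06 with centring on the tested genes' median and -0.17 to 0.02 without 1 array. Psmc6 ran from -0.12 (without the third WT array) to 0.58, Psmd14 from -0.09 (without the same array) to 0.35, and Psmb8 from -0.22 (without the second WT array) to 0.31, being -0.02 with averaged probe sets.

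Same-numbered arrays had residual correlations of 0.07, -0.19 and 0.15, and differently numbered arrays ran from -0.27 to 0.22. With 3 arrays in a group these values cannot settle whether the numbers pair samples. With a replicate block, 1 proteasome gene was higher, Psmb2 in place of Psma1 (0.67, limma adjusted p = 0.295), and 1 lower, Psmd5. Over all genes the number passing 5% was 58, and 0 with the replicate block, 203 with array weights, 12 with averaged probe sets, 14 with every probe set tested, 1 with no level filter, 37 with values under log2 5 raised to it, and 0 to 127 without 1 array. Of 324 values (18 named genes under 18 alternatives), 291 kept their direction and side of the thresholds, 19 lost a call, 6 gained one and 8 changed sign. The lowest mean signal of a tested proteasome gene was 7.53, above the log2 5 limit, and precision was limited by 3 arrays in each group.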
